A study of Homo sapiens with 6 samples.

Results

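To examine transforming growth factor-β (TGF-β) signalling genes after partial knockdown of interleukin-1β (IL-1β) RNA in oral cancer cells, 10 genes were followed. They were the ligands TGFB1, TGFB2 and TGFB3 and the receptors TGFBR1, TGFBR2 and TGFBR3. The others were the latent TGF-β binding proteins LTBP1 and LTBP3, the latent TGF-β activator THBS1 and the TGF-β-induced matrix protein TGFBI. Members were all probe sets, that is groups of short probes for a transcript, whose platform annotation lists exactly 1 gene symbol among these names. This gave 29 probe sets for the 10 genes, of 19775 genes named by a single-symbol probe set on the array. Cal27, an established human tongue squamous cell carcinoma line, was profiled on Affymetrix Human Genome U133 Plus 2.0 arrays after lentiviral transduction with a short hairpin RNA against IL-1β (LV-shIL-1β, 3 arrays) or with a scrambled hairpin (LV-shNC, 3 arrays). Both groups came from transduced cells kept in 2 µg/mL puromycin for 2 weeks, so the controls carry a lentivirus and the selection as well, and a single hairpin represents the knockdown. No source used here states that the arrays of 1 group are separate cultures. The p-values thus reflect array-to-array spread alone, possibly technical.

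TGF-β is secreted as a latent complex, in which the growth factor is held by its propeptide and tethered to the matrix by latent TGF-β binding proteins. Integrins, proteases and thrombospondin-1, the THBS1 product, release it, and the free ligand binds TGFBR2, which recruits and phosphorylates TGFBR1. TGFBR1 then phosphorylates SMAD2 and SMAD3. In squamous epithelium the pathway is known for restraining proliferation and, in carcinomas, for matrix production and mesenchymal change.

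The hairpins are shown because they are the only designed difference between the groups. Capitals mark the stem of 19 bases on each side of a loop of 9 bases.
LV-shIL-1β: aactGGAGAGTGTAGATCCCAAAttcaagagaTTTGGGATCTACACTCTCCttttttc
LV-shNC: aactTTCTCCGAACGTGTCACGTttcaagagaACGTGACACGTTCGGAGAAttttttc

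The promoters of the 3 ligands, of which TGFB2 fell, and of THBS1 and TGFBI, which also fell, are shown so that the letters before each start can be read beside the values. Each is the 250 bases before the RefSeq start in GRCh38.p14, written 5′ to 3′ on the strand of the gene, and capitals mark matches on either strand to AP-1 (TGANTCA), CRE (TGACGTCA), SMAD (CAGAC), TEAD (GGAATG), SP (GGGCGG) or the TATA box (TATAAA). TGFB2 lies at chr1:218345086-218345335 (+), THBS1 at chr15:39580829-39581078 (+), TGFBI at chr5:136028738-136028987 (+) and TGFB1 at chr19:41353923-41354172 (-). TGFB3 has 2 annotated windows, at chr14:75983012-75983261 (-) and chr14:75981996-75982245 (-), given in that order.
TGFB2: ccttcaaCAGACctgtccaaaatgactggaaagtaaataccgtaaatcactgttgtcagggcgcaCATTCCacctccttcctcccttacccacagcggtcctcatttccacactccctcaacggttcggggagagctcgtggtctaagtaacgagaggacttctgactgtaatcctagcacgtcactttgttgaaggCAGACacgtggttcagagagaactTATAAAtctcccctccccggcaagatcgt
THBS1: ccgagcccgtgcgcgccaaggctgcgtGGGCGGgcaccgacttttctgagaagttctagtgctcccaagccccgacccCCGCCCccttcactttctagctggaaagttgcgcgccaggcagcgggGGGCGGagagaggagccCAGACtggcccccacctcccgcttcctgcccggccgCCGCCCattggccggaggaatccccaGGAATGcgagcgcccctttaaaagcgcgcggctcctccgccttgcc
TGFBI: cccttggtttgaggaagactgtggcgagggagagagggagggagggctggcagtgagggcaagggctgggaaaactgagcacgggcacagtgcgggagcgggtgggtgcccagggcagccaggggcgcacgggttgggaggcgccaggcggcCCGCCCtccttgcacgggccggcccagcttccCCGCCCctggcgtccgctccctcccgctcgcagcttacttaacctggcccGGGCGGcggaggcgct
TGFB1: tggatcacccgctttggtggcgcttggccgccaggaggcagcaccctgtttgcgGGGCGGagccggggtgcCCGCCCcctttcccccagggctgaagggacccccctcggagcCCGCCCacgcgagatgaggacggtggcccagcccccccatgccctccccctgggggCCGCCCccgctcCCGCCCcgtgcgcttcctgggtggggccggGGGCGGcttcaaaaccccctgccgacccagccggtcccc
TGFB3, first window: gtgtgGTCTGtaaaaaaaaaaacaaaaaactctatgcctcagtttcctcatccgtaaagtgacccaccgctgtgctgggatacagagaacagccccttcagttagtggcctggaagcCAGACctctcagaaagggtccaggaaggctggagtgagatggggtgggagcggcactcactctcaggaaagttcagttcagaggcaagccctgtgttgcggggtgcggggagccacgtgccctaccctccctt
TGFB3, second window: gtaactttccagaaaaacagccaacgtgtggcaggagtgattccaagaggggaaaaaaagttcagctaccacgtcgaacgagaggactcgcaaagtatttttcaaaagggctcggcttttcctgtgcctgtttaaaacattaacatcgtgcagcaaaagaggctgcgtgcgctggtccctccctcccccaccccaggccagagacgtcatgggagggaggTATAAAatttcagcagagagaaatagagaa
The TGFB2 window held 2 SMAD matches, 243 and 53 bases before the start, a TEAD match at 185 and a TATA box at 29, and 0 SP matches. TGFB3, which was not called, held 2 SMAD matches in its first window, a TATA box at 30 in its second, and 0 SP matches in both. The TGFB1 window held 6 SP matches and none of the other motifs. THBS1 held 1 SMAD match at 108, 1 TEAD match at 46 and 4 SP matches, and TGFBI held 3 SP matches alone. In these windows 0 matches of different motifs overlapped. Among all 10 genes, 7 had at least 1 window with the SP letters, 5 with SMAD and 3 with TEAD, and in each case 2 were called lower. The TATA box letters were in 2 genes, 1 of them called lower, CRE in 1, not called, and AP-1 in 0. No link between letters and calls is read from these counts. Some genes have several windows, TGFBR1 8 and LTBP1 3. The shares that follow are per window, so the gene counts cannot be set against them. Of all 35116 RefSeq windows of this length, 38% held the SMAD letters, 11.9% TEAD, 42.6% SP, 10.7% the TATA box, 6.57% AP-1 and 1.65% CRE, so the SMAD and SP letters are common. These matches are a description of the letters and not binding sites.

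IL1B, the gene targeted by the hairpin, was lower on both of its probe sets. The brighter one (205067_at) had signals of 2677, 2611 and 2494 in LV-shNC and of 1569, 1569 and 1596 in LV-shIL-1β, so it fell by 39.1% (log2 difference -0.72 ± 0.04 SE, limma adjusted p = 2.45e-05). The groups did not overlap. All signals here are linear intensities as deposited, differences are LV-shIL-1β minus LV-shNC on the log2 scale with the standard error from limma, and calls are limma adjusted p-values under 0.05.

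Among the TGF-β genes, TGFB2, THBS1 and TGFBI fell in LV-shIL-1β, and the test called none of the 10 higher. TGFB2 moved most, with log2 differences from -0.72 to -0.59 on its 3 called probe sets, while THBS1 fell by 0.31 and TGFBI by 0.17 on the log2 scale. Of the 29 probe sets, 24 passed the filter on low signals (a signal over 18.6, the overall median, on 3 or more of the 6 arrays). Of these 24, 5 were called lower, 0 higher and 19 were not called. Over all kept probe sets 3.37% were called lower and 3.68% higher, 7.06% in all. By gene, on the brightest kept probe set, 3 of 9 measured genes were called lower and 0 higher, against 4.50% and 4.03% of all genes, 8.53% in all. The median log2 difference was -0.15 over the 24 kept probe sets and 0.01 over all kept probe sets. On the brightest kept probe set of each gene it was -0.12 for the TGF-β genes and 0.00 for all genes. Of the 24, 17 had a negative difference, among them all 7 of THBS1 and all 4 kept ones of TGFB2. Probe sets of 1 gene are not separate, and the share over all kept probe sets was not computed, so nothing is read from this count.

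**Figure D1:**
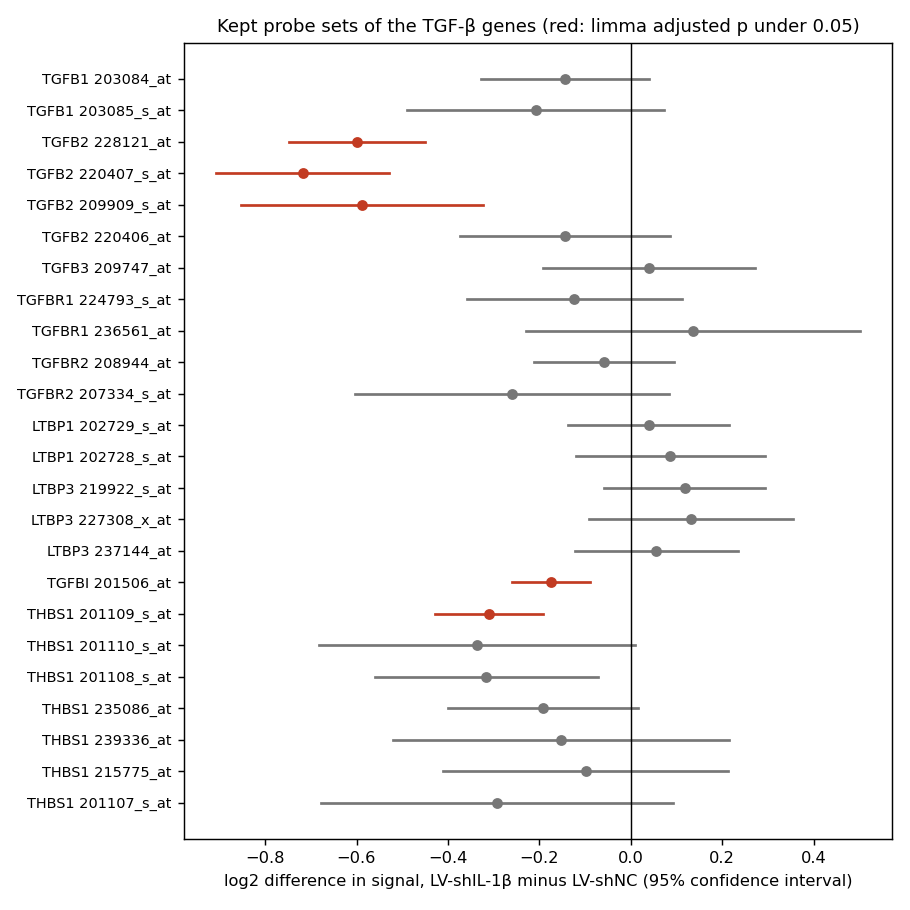
Log2 difference in signal (LV-shIL-1β minus LV-shNC, x axis) for each of the 24 kept probe sets of the TGF-β genes, with points for the estimate, bars for the 95% confidence interval and red for a limma adjusted p under 0.05. The 5 red intervals, of 3 TGFB2 probe sets, TGFBI and 1 THBS1 probe set, lie below 0.

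TGFB2 was the ligand that passed the test, and TGFB1 and TGFB3 did not. TGFB2, a ligand of epithelia and stroma, had signals of 139, 139 and 152 in LV-shNC and of 91.3, 98.7 and 93.6 in LV-shIL-1β on its brightest probe set (228121_at). The highest knockdown array lay below the lowest control array. The mean was 143 ± 7.94 against 94.5 ± 3.76 (SD, n = 3), a log2 difference of -0.60 ± 0.07 (95% confidence interval -0.75 to -0.45, limma adjusted p = 0.00109).

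The probe set 220407_s_at of TGFB2 gave 62.6, 58.3 and 56.0 in LV-shNC and 36.4, 32.9 and 38.5 in LV-shIL-1β (-0.72 ± 0.08, limma adjusted p = 0.00156). On 209909_s_at the signals were 31.2, 39.9 and 32.8 against 25.4, 23.2 and 20.3 (-0.59 ± 0.12, limma adjusted p = 0.0186). On both, every knockdown array was again below every control array. The call of 209909_s_at was lost without LV-shNC replicate 2, LV-shIL-1β replicate 2 or LV-shIL-1β replicate 3, with adjusted p-values of 0.0603, 0.0785 and 0.0669.

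The remaining TGFB2 probe sets were dim. On 220406_at, close to the filter, the control signals of 22.9, 21.0 and 18.6 overlapped those of 18.6, 18.3 and 19.5 in LV-shIL-1β, and no difference was called (-0.14 ± 0.10, limma adjusted p = 0.451). The ratio of 220406_at to 228121_at changed by 0.46 between groups on the log2 scale (exact permutation p = 0.1, the smallest that 3 against 3 arrays allow, and 1 after adjustment over the 15 probe set pairs compared). On 209908_s_at, which did not pass the filter, signals of 15.8, 13.9 and 8.85 overlapped 6.90, 7.14 and 9.12.

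**Figure D2:**
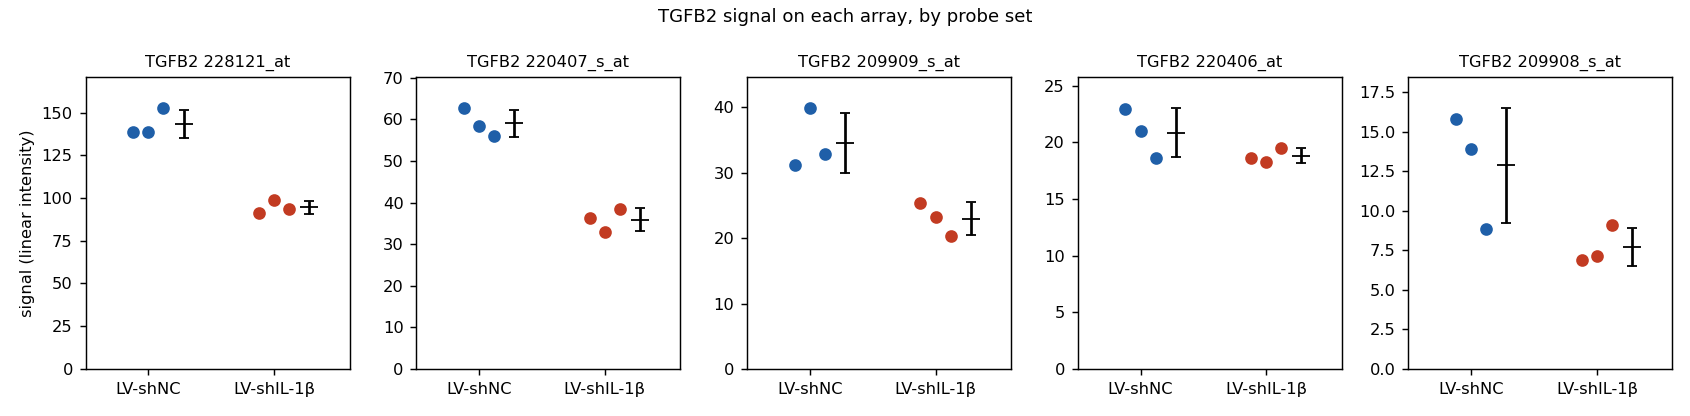
Signal (linear intensity, y axis from 0) of the 5 TGFB2 probe sets on each array, with control arrays in blue, knockdown arrays in red and bars for the mean ± SD. On 228121_at, 220407_s_at and 209909_s_at the groups do not overlap, and on 220406_at and 209908_s_at they do.

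TGFB1, the ligand most cells make, was not called. On 203084_at the control signals were 30.9, 34.8 and 33.2 and the knockdown signals 28.9, 29.8 and 30.8. The groups did not overlap although the difference was small (-0.14 ± 0.08, 95% confidence interval -0.33 to 0.04, limma adjusted p = 0.339). Among the 24 kept probe sets 6 had all knockdown arrays below all controls and 0 had them above, against 12.6% and 15.3% of all kept probe sets. On 203085_s_at, the second probe set of TGFB1, the groups overlapped (24.1, 27.1 and 26.4 against 18.94, 22.2 and 26.7, limma adjusted p = 0.367).

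TGFB3, a ligand expressed at epithelial fusion and in wound repair, had overlapping signals of 25.8, 22.3 and 20.8 in LV-shNC and of 22.1, 24.2 and 24.5 in LV-shIL-1β on 209747_at (0.04 ± 0.10, limma adjusted p = 0.861). Its other probe set, 1555540_at, did not pass the filter, with signals from 3.91 to 4.85. The change in TGFB2 relative to TGFB1 was compared through the ratio of their brightest probe sets within each array. This TGFB1 to TGFB2 ratio rose by 0.46 on the log2 scale from -2.12 ± 0.11 to -1.66 ± 0.06 (SD, n = 3, exact permutation p = 0.1, 0.2 after adjustment over the 4 ratios compared), and all knockdown arrays lay above all controls. The design allows no smaller p, so unequal change of these ligands did not reach a threshold of 0.05. The ratio of the dim TGFB2 probe set 220406_at to 228121_at also changed by 0.46. The probe sets of TGFB1 are dim too, and the part of low signal in these ratios was not tested. The ratio of TGFB2 to TGFB3 changed by -0.64 (exact permutation p = 0.1, adjusted p = 0.2), and that of TGFB1 to TGFB3 by -0.18 (exact permutation p = 0.4, adjusted p = 0.533).

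None of the receptor probe sets was called. TGFBR1, the type I receptor kinase, gave 265, 336 and 333 in LV-shNC and 323, 274 and 259 in LV-shIL-1β on 224793_s_at (-0.12 ± 0.11, 95% confidence interval -0.36 to 0.11, limma adjusted p = 0.537). Its dimmer probe set 236561_at had the opposite sign (0.14 ± 0.16, limma adjusted p = 0.677), with overlapping arrays on both. TGFBR2, the type II receptor that binds ligand first, gave 245, 224 and 239 against 208, 235 and 239 on 208944_at, with overlapping groups (-0.06 ± 0.07, interval -0.21 to 0.10, limma adjusted p = 0.672).

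The dim TGFBR2 probe set 207334_s_at differed by -0.26 ± 0.15 (limma adjusted p = 0.354). The TGFBR1 to TGFBR2 ratio on the brightest probe sets changed by -0.07 (exact permutation p = 1). TGFBR3, the proteoglycan co-receptor betaglycan, had no probe set past the filter. Its probe set 226625_at read 8.18, 9.08 and 8.59 in LV-shNC and 9.95, 11.6 and 9.46 in LV-shIL-1β, all higher in the knockdown but below the filter, and 204731_at ranged from 2.07 to 3.21. Without the filter, where 2.74% of all probe sets were called, their adjusted p-values from limma were 0.305 and 0.349.

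The latency proteins were not called. LTBP1, which ties the latent complex to the matrix, had a control mean of 51.2 ± 1.74 and a knockdown mean of 52.6 ± 4.13 on 202729_s_at (SD, n = 3), with a difference of 0.04 ± 0.08 (interval -0.14 to 0.22). LTBP3, a binding protein of the same family, gave 107, 96.9 and 114 against 108, 122 and 115 on 219922_s_at (0.12 ± 0.08, interval -0.06 to 0.29, limma adjusted p = 0.417). All 5 kept probe sets of LTBP1 and LTBP3 had small positive differences, from 0.04 to 0.13, and their groups overlapped. On the LTBP3 probe set 227308_x_at the interval was wider, from -0.09 to 0.35. These intervals reflect array-to-array spread alone, so they may not cover a difference between separate cultures.

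THBS1, the matrix glycoprotein thrombospondin-1 that can free latent TGF-β, fell on its brightest probe set. On 201109_s_at the signals were 1931, 1974 and 1723 in LV-shNC and 1497, 1560 and 1475 in LV-shIL-1β, so it fell by 19.4% (-0.31 ± 0.05, interval -0.43 to -0.19, limma adjusted p = 0.00826). The groups did not overlap on it. All 7 THBS1 probe sets had a negative difference, from -0.34 to -0.10, but only 201109_s_at was called, and the arrays overlapped on the other 6. The next brightest, 201110_s_at, gave 979.5, 1476 and 1328 against 1167, 1014 and 807 (-0.34 ± 0.15, limma adjusted p = 0.234). Averaged over its probe sets, THBS1 differed by -0.24 ± 0.07 and was not called (limma adjusted p = 0.0568).

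TGFBI, the matrix protein that TGF-β induces in many cells, fell on its single probe set 201506_at, with 3166, 3064 and 2938 in LV-shNC and 2622, 2716 and 2785 in LV-shIL-1β. Every knockdown array lay below every control array, and the signal fell by 11.4% (-0.17 ± 0.04, interval -0.26 to -0.09, limma adjusted p = 0.0261). The call was lost without LV-shNC replicate 1 (0.0691), LV-shNC replicate 2 (0.0824), LV-shIL-1β replicate 1 (0.0549) or LV-shIL-1β replicate 2 (0.10).

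**Figure D3:**
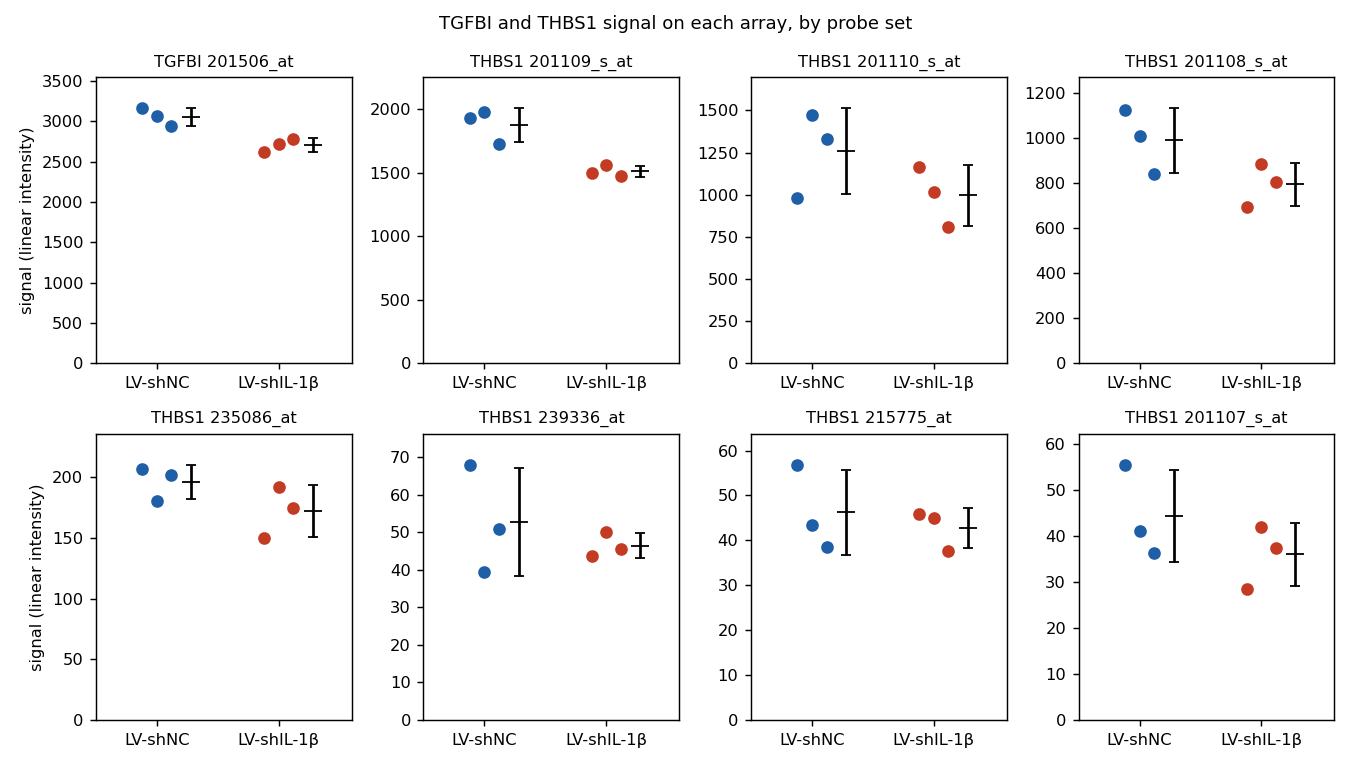
Signal (linear intensity, y axis from 0) of TGFBI and of the 7 THBS1 probe sets on each array, with control arrays in blue, knockdown arrays in red and bars for the mean ± SD. The groups do not overlap on TGFBI 201506_at and THBS1 201109_s_at, and overlap on the other 6 THBS1 probe sets.

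With the fold threshold of 1.5 and an unadjusted limma p under 0.05, which approximates the thresholds named in the study's methods, 4 of the 29 probe sets were lower and 0 higher. All 4 belonged to TGFB2 (228121_at, 220407_s_at, 209909_s_at and 209908_s_at). Of these, 209908_s_at did not pass the filter on low signals, its groups overlapped, and it was not called without the filter (limma adjusted p = 0.0922). Over all 54613 probe sets that were not controls, 0.201% were lower by this rule.

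In the wider pathway the share of genes called was near that of all genes. Of 82 further TGF-β genes in 5 lists, 76 had a single-symbol probe set and 63 a kept one, and 1 was called higher, 3 lower and 59 not, with a median difference of 0.00. These 4 of 63 stand beside 8.53% of all genes, 4.03% higher and 4.50% lower, and nothing particular to the pathway is read from this count or from the counts of the single lists. Among 13 measured genes of latency and activation 0 were called. LTBP4, another latent TGF-β binding protein, came closest at 56.7 ± 3.36 against 46.5 ± 1.44 (SD, n = 3, limma adjusted p = 0.0501), and the integrin subunit ITGB8, which activates latent TGF-β, had 148 ± 11.1 against 186 ± 25.2 (limma adjusted p = 0.0783). Among 17 co-receptor and SMAD signalling genes, FKBP1A, whose product FKBP12 binds TGFBR1 and keeps it inactive, was called lower (618 against 532, -0.22 ± 0.05, limma adjusted p = 0.0265), with 2 of its 4 kept probe sets called. Its call was lost without LV-shNC replicate 1 (0.0679), 2 (0.0895) or 3 (0.0709) and without LV-shIL-1β replicate 2 (0.116) or 3 (0.0990), and also under the replicate block (0.124) and with no variance trend (0.0786). SMAD2 and SMAD3, the receptor substrates, differed by 0.09 ± 0.08 and -0.02 ± 0.05 and were not called.

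None of the 12 measured negative regulators was called, and PMEPA1, a TGF-β-induced inhibitor, had 216 ± 16.1 against 266 ± 25.4 (SD, n = 3, limma adjusted p = 0.0582). Of 19 measured epithelial target genes, HMGA2, an architectural chromatin protein, rose from 526 to 782 (0.57 ± 0.05, limma adjusted p = 0.000254), and 6 of its 7 kept probe sets were called. COL4A1, a basement membrane collagen, fell from 866 to 679 (-0.35 ± 0.04, limma adjusted p = 0.00193), and VIM, the mesenchymal filament protein vimentin, from 52.1 to 36.0 (-0.54 ± 0.07, limma adjusted p = 0.00299). The other 16 targets were not called, among them FN1 (fibronectin) at 0.22 ± 0.06, limma adjusted p = 0.071. Of the 2 measured genes that TGF-β lowers, ID1 and ID3, 0 were called.

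**Figure D4:**
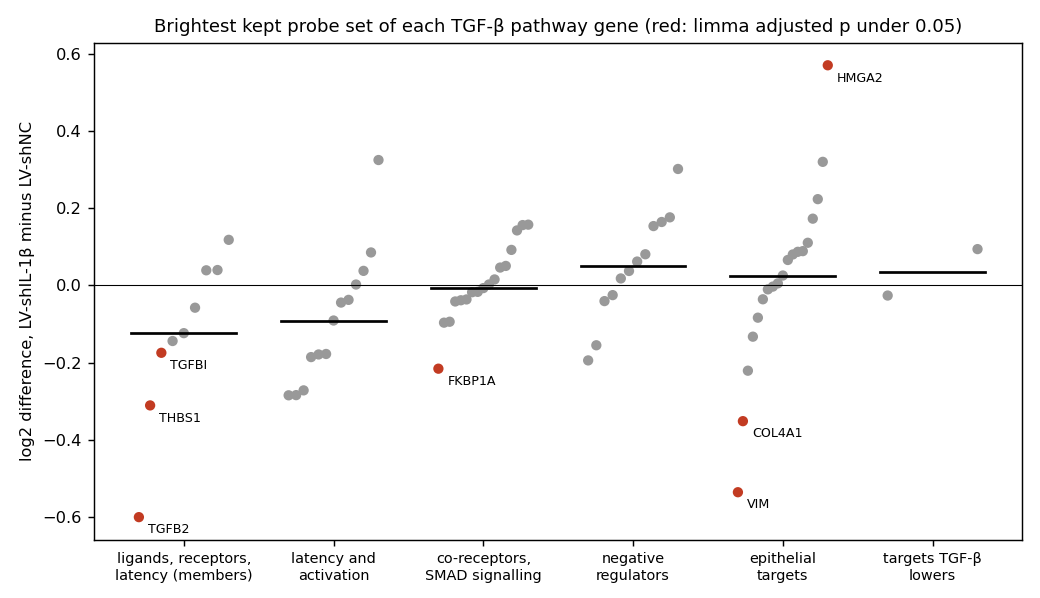
Log2 difference (LV-shIL-1β minus LV-shNC, y axis) of the brightest kept probe set of each gene, by list, with a bar for each list's median and red for a limma adjusted p under 0.05. TGFB2, VIM and COL4A1 are the lowest of the red points and HMGA2, at 0.57, the highest.

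The squamous markers KRT14, KRT5 and SFN were present, with control means of 7175, 3678 and 7214, while the leukocyte marker PTPRC had a mean of 2.68, below the filter. Of the 7 measured squamous markers 2 were called lower, the basal keratins KRT14 and KRT5 (-0.35 ± 0.03 and -0.32 ± 0.04), and 5 were not called (CDH1 0.04, ITGB4 0.15, SFN 0.01, DSG3 -0.10 and DSP -0.13). The summed signal of the 7 was 22641 to 23590 in LV-shNC and 20411 to 20974 in LV-shIL-1β. Some genes listed as markers of other cell types also moved beside TGFB2. The sums below include probe sets that did not pass the filter. The 9 fibroblast markers, of which 5 passed the filter, summed to 192 to 211 in LV-shNC and 154 to 168 in LV-shIL-1β. LUM (27.5 against 12.4) and COL1A2 (23.2 against 16.1) were called lower. Both passed the filter through the control arrays alone, with every knockdown signal below the overall median, so nothing is read from these calls. The 6 leukocyte markers summed to 107 to 112 and 125 to 128, and CD14 alone passed the filter and was called higher (49.5 against 70.4). The 5 endothelial markers summed to 72.2 to 74.5 and 69.0 to 71.7, and the 4 platelet markers to 72.0 to 81.3 and 70.3 to 76.4, with 0 called in either list. Of the 4 platelet markers 3 passed the filter, so passing it at a low signal does not show a cell type. Cal27 is a carcinoma line, so these signals are not read as the presence of other cell types. The part of these markers in the changes of the TGF-β genes was not tested. In these bulk samples fewer cells expressing a gene and less RNA per cell cannot be told apart. For GAPDH, the 3′ over 5′ ratio on the log2 scale, which reflects RNA integrity, did not overlap between groups (-0.06, 0.01 and 0.00 against 0.04, 0.05 and 0.02), while that of ACTB did.

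**Figure D5:**
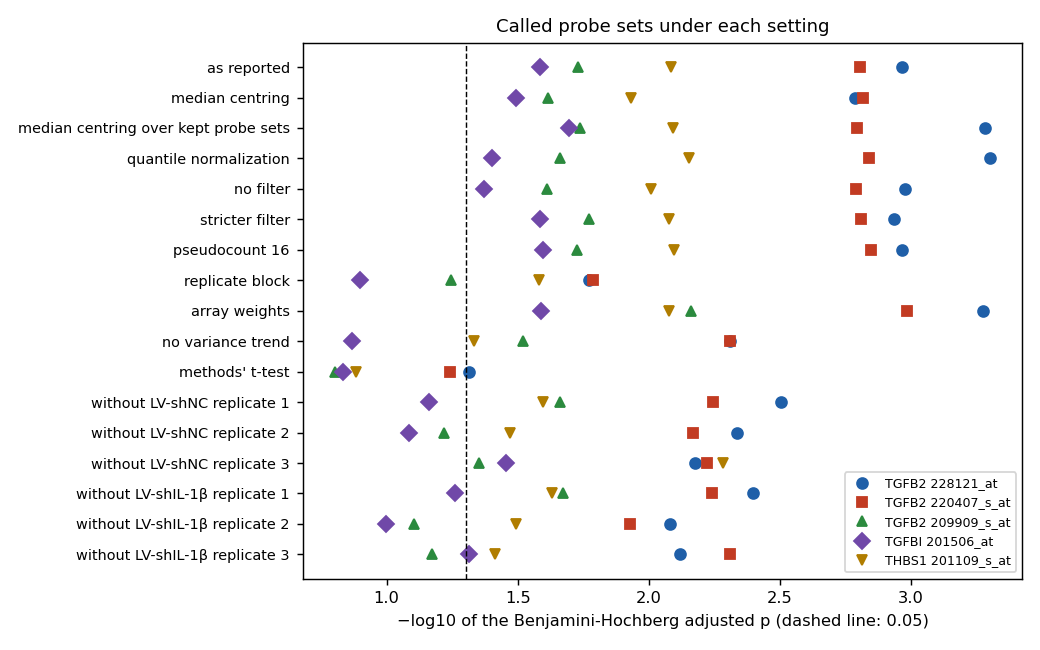
Minus log10 of the limma adjusted p (x axis, dashed line at 0.05) of the 5 called probe sets under each of 17 settings of the processing (y axis), 1 of which is the plain test that the methods name. TGFB2 228121_at stays right of the line in every setting, while TGFBI 201506_at falls left of it in 7 of them.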

How the data were processed

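Total RNA (6 µg per array) from Cal27 cells was labelled with biotin and measured on 6 arrays, 3 with LV-shNC and 3 with LV-shIL-1β, grouped by the sample labels. The authors deposited linear intensities, 1 value for each probe set on each array. The submitters' processing notes name MAS5, and no source used here gives its settings or any further normalization. Values ran from 1.38 to 10502 over 54675 probe sets, and 0 other value columns were left out. Array medians ran from 18.4 to 18.86, and with 3 arrays a group the array number sets the precision. On 3 of the 29 TGF-β probe sets 2 arrays held the same value, TGFB2 228121_at among them (10.3%, the same share as over all probe sets).

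Signals were put on the log2 scale without further normalization. The 62 control probe sets were left out and 27546 probe sets kept. Groups were compared by limma 3.58.1 in R 4.3.3 (lmFit and eBayes with trend, two-sided) with Benjamini-Hochberg adjustment over all kept probe sets, and a gene was represented by its brightest kept probe set. The model was tested on simulated data drawn with independent errors from its own fitted variances. Such data cannot show how it performs on tied values or on arrays that are technical repeats. The platform annotation gave 1 symbol to 41097 probe sets, several to 1801, of which 0 list a TGF-β gene followed here, and none to 11777. Promoters came from RefSeq (GRCh38.p14).

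Named genes were all members, IL1B, the pathway genes that passed the threshold, and genes whose pattern followed TGFB2 most closely; LTBP4, ITGB8, PMEPA1, FN1 and the SMAD genes were named after their values were seen. The members, the lists and the rules were chosen with earlier results of these data known. Alternatives covered centring, quantile normalization, the filter, a pseudocount, array weights, the variance trend, a block, the methods' t-test, the probe set chosen and each array left out. Amino acid sequences were not used here.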

Additional observations from a re-analysis of the deposited data

How the results depend on the processing

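TGFB2 228121_at passed the threshold in all 17 settings, though narrowly by the methods' t-test (adjusted p = 0.0486). On it LV-shNC replicates 1 and 2 held the same value, which narrows the control spread. The probe sets 220407_s_at of TGFB2 and 201109_s_at of THBS1 passed in 16, missing it by the methods' t-test (adjusted p = 0.0574 and 0.131). TGFB2 209909_s_at passed in 12 and TGFBI 201506_at in 10. No setting called a TGF-β probe set higher. THBS1 201108_s_at passed without LV-shNC replicate 3 (adjusted p = 0.0460). FKBP1A passed in 9 settings.

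Replicate numbers recur in both groups, but same-numbered arrays did not deviate together (correlations -0.39, -0.11 and -0.21), so they were not taken as pairs. With the replicate number as a block, 568 probe sets were called in place of 1944, and 3 TGF-β probe sets in place of 5. The methods' t-test called 267 after Benjamini-Hochberg adjustment, with 1 TGF-β probe set and 1 gene. Leaving out each array in turn gave 694 to 1807 probe sets, 3 to 6 TGF-β probe sets, 2 to 3 genes and 3 to 7 pathway genes. Pathway genes called numbered 9 with array weights and 7 when the most variable probe set stood for a gene, against 4. Centring on the median of all probe sets gave 1195 higher and 844 lower, centring on the median of kept ones, chosen after seeing the data, gave 861 and 1206, and the reported fit gave 1015 and 929. All 3 called the same 5 TGF-β probe sets. The TGFB1 to TGFB2 ratio changed by 0.34 with means over kept probe sets, and the TGFBR1 to TGFBR2 ratio by 0.40 on the most variable ones.

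Without 1 array, uncalled differences changed sign for THBS1 239336_at (-0.35 to 0.048), THBS1 215775_at (-0.22 to 0.060), TGFB3 209747_at (-0.028 to 0.13), TGFBR1 236561_at (-0.042 to 0.27), TGFBR2 208944_at (-0.095 to 0.0054) and LTBP1 202729_s_at (-0.024 to 0.080). The cause was not tested. Probe sets near or below the filter, such as TGFB2 220406_at and those of TGFB1, TGFB3 and TGFBR3, are limited by their low signal.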

Other observations

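The genes whose log2 signals followed TGFB2 228121_at most closely over the 6 arrays were TENT5B, which encodes a terminal nucleotidyltransferase (Pearson r = 0.999, log2 difference -0.59), SYT1, which encodes the calcium sensor synaptotagmin-1 (0.998, -0.25), and ZNF155, which encodes a zinc finger protein (0.997, -0.18). Of 12304 genes compared, 355 had an r above 0.95, and all points share the same 6 arrays and 2 groups, so the likeness is a description.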
